A study of Arabidopsis thaliana with 6 samples.

Results

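The 2 probe sets described here measure HB1, a class 1 phytoglobin (plant haemoglobin), and SAD6, a stearoyl-acyl carrier protein (ACP) desaturase, in Arabidopsis thaliana plants short of oxygen. They are probe set ID.263096_at, taken for HB1 (AT2G16060), and probe set ID.260869_at, taken for SAD6 (AT1G43800), and they are 2 of 22746 probe sets tested; the prefix ID. is not part of their names. They were chosen by probe set number because both had low values in 35S:PCO1 relative to wild type, so the difference between the genotypes in these 2 probe sets is described and not tested. The probe annotation used here lists neither, and the gene names come from the choice of the members, not from the deposited table. The gene table lists AT2G16060 as HB1 and AT1G43800 as FTM1, with SAD6 as a synonym.

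Class 1 phytoglobins bind oxygen very tightly and, in their oxygenated form, convert nitric oxide to nitrate. In plants nitric oxide accumulates when oxygen is short, and class 1 phytoglobin genes are among the best-known genes of the hypoxia response. Stearoyl-ACP desaturases are soluble di-iron enzymes of the plastid that put the first double bond into stearoyl-ACP, drawing on molecular oxygen and on electrons from ferredoxin. SAD6 thus consumes oxygen itself. Transcription of many hypoxia genes is driven by group VII ethylene response factors. Plant cysteine oxidases such as PCO1 are oxygen-dependent enzymes that oxidise the cysteine at the start of these proteins, a step that sends them to degradation.

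Total RNA was hybridised to 6 single-colour Affymetrix Arabidopsis arrays in 2 groups of 3: 35S:PCO1, a transgenic overexpressor of PCO1 whose name gives the viral 35S promoter, active in most plant cells, and wild type. Every plant of both genotypes was held in darkness at 5% oxygen for 4 h, starting in the morning, so no plant in normal air is compared and the values do not measure induction. For the material, the labels name both the rosette and the entire plant, and for the age both 4 and 5 weeks. They do not say how many transgenic lines were used, whether plants were pooled, or whether replicates came from separate plants, so the spread between arrays may be partly technical.

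Values are the authors' RMA (robust multi-array average) signals on the log2 scale, where a difference of 1 is a factor of 2. Array medians lay between 5.86 and 5.91, the lowest values between 2.73 and 2.81, and the lower quartile between 4.22 and 4.27. Correlations between arrays ran from 0.994 to 0.999. PCO1 itself was not analysed here. Of the leaf markers, 3 of 8 were matched to a probe set that the annotation lists. Their means ran from 12.3 for PSAN, a photosystem I subunit, to 13.3 for LHCB4.1, a photosystem II antenna protein. No flower or seed marker was matched.

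HB1 was lower in every 35S:PCO1 array than in any wild-type array. The HB1 signal was 6.63, 6.76 and 6.97 in 35S:PCO1 replicates 1, 2 and 3, against 9.08, 9.32 and 8.71 in wild-type replicates 1, 2 and 3. The groups were separated by a gap of 1.75 log2 units between the highest 35S:PCO1 array and the lowest wild-type array, wider than the range within 35S:PCO1 (0.33) or within wild type (0.60). The means were 6.79 ± 0.17 in 35S:PCO1 and 9.04 ± 0.30 in wild type (SD, n = 3 each), a log2 change of -2.25 (SE 0.15), or a 4.77-fold lower signal.

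SAD6 showed the same order of genotypes with a wider separation. Its signal was 3.91, 4.13 and 4.12 in 35S:PCO1 replicates 1, 2 and 3, against 7.18, 7.55 and 6.84 in wild-type replicates 1, 2 and 3. The gap between the highest 35S:PCO1 array and the lowest wild-type array was 2.71 log2 units, against ranges of 0.21 within 35S:PCO1 and 0.71 within wild type. The means were 4.06 ± 0.12 in 35S:PCO1 and 7.19 ± 0.35 in wild type (SD, n = 3 each), a log2 change of -3.13 (SE 0.16), or an 8.78-fold lower signal. The 35S:PCO1 mean lay below the lower quartile of every array and 1.27 above the mean of the arrays' lowest values, where RMA compresses differences, so the fold may understate the difference. HB1 in 35S:PCO1 lay 4.00 above the lowest values. In whole organs, fewer cells expressing a gene and less RNA per cell cannot be told apart.

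**Figure D1:**
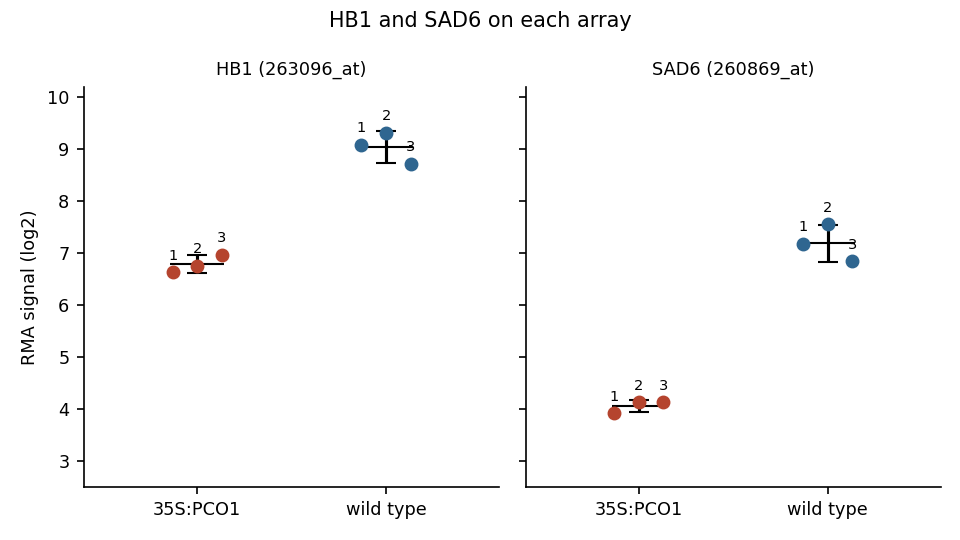
RMA signal (log2) of HB1 and SAD6 on each of the 6 arrays, with 35S:PCO1 to the left of wild type. Points are arrays numbered by replicate, and bars are the mean and SD of 3 arrays. All 35S:PCO1 points lie below all wild-type points, and SAD6 in 35S:PCO1 (mean 4.06) is close to the scale's lower end.

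Groups that do not overlap in the lower direction were found in 10.5% of all tested probe sets, and in the higher direction in 5.68%, and nothing is read from this for HB1 and SAD6 because the same contrast chose them. By size of decrease, SAD6 was in position 1 and HB1 in position 3 of the 22746 probe sets. Between them stood AT4G10270, of the wound-responsive protein family, with a log2 change of -2.54 (SE 0.19). Just after HB1 came a probe set that the annotation does not list, with -2.16 (SE 0.13). It was followed by AT1G19530 with -2.08 (SE 0.28) and AT1G33055 with -2.03 (SE 0.15).

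**Figure D2:**
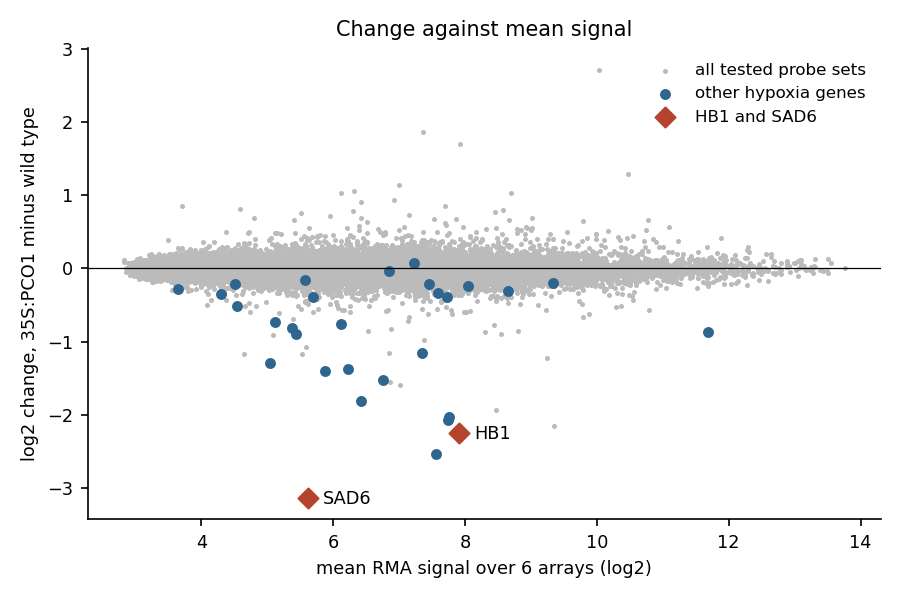
Log2 change, 35S:PCO1 over wild type (vertical) against the mean RMA signal over the 6 arrays (horizontal, log2) for each tested probe set. Grey points are all 22746 probe sets, and blue points the 28 other hypoxia genes matched to a probe set. Red diamonds are HB1 (-2.25) and SAD6 (-3.13), which lie at the lower edge of the plot.

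The step between the genotypes was larger for SAD6 than for HB1. The SAD6 signal minus the HB1 signal was -2.72, -2.63 and -2.84 in 35S:PCO1 replicates 1, 2 and 3, against -1.90, -1.77 and -1.87 in wild-type replicates 1, 2 and 3. These differences compare arrays and are not a ratio of transcripts, since probe sets bind with different strength. The mean difference was -2.73 ± 0.11 in 35S:PCO1 and -1.85 ± 0.070 in wild type (SD, n = 3 each), 0.88 log2 units more negative in 35S:PCO1. This is the gap between the changes of the genes given above. The same contrast chose both genes, so it is described and not tested. Within wild type the difference ranged over 0.13, less than HB1 (0.60) or SAD6 (0.71) by itself. Within 35S:PCO1 it ranged over 0.21, against 0.33 for HB1 and 0.21 for SAD6 by itself, so it was hardly narrower than SAD6 there.

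Both genes varied more between replicates than most probe sets, mainly in wild type. The SD of HB1 was 0.17 in 35S:PCO1 and 0.30 in wild type, above 92.3% and 98.0% of all probe sets in those groups. The SD of SAD6 was 0.12 in 35S:PCO1 and 0.35 in wild type, above 80.3% and 98.9% of all probe sets. The median SD over all probe sets was 0.073 in 35S:PCO1 and 0.087 in wild type.

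The replicates of wild type took the same order in both genes. Replicate 2 stood above the wild-type mean by 0.28 in HB1 and 0.36 in SAD6, replicate 1 lay near it at 0.044 in HB1 and -0.011 in SAD6, and replicate 3 lay below it at -0.32 in HB1 and -0.35 in SAD6. In 35S:PCO1, replicate 1 was the lowest array for both genes, at -0.15 for HB1 and -0.14 for SAD6. The 35S:PCO1 replicates 2 and 3 differed in HB1 (-0.028 and 0.18) but hardly in SAD6 (0.072 and 0.069). Over the 6 deviations from the genotype means, which leave out the contrast that chose the genes, HB1 and SAD6 had a Pearson r of 0.94.

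That likeness was shared with many other probe sets. Among the 1125 probe sets with an SD within genotypes of at least 0.2, 65 had an r above 0.9 with HB1, and SAD6 was number 27 in that order. With SAD6, 53 had an r above 0.9, and HB1 was number 20. The genes with 1 name that were most like HB1 within genotypes were AT3G61490 (r = 0.994), AT1G76960 (r = 0.992) and AT2G21640 (r = 0.982). Most like SAD6 were AT3G19200 (r = 0.995), AT1G64360 (r = 0.992) and GI (r = 0.989), which encodes GIGANTEA of the circadian clock. These are descriptions over 6 arrays with shared array effects. Of the 28 other hypoxia genes matched to a probe set, 14 had an r above 0.5 with HB1 within genotypes (median r 0.49). With SAD6, 13 did (median r 0.44). The shares over all probe sets were 26.7% with HB1 and 27.6% with SAD6. No minimum SD was asked here, unlike the 0.2 above, and an r from a small spread says little. The median r over all probe sets was 0.087 with HB1 and 0.11 with SAD6. An r below 0 was found in 8 of the 28 with HB1 and in 6 with SAD6. By limma, none of the 6 genes named above as most like HB1 or SAD6 was called different between the genotypes, and none had an unadjusted p under 0.05. These 6 were taken among probe sets with a wide spread within genotypes, which makes a call less likely. Only 0.264% of all tested probe sets were called, so nothing is read from this count. AT3G61490 had a log2 change of -0.20 (SE 0.14) and AT3G19200 of -0.47 (SE 0.21, limma adjusted p = 0.48). AT1G76960 stood at 0.26 (SE 0.14), with a sign opposite to that of HB1, and GI at 0.015 (SE 0.15).

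**Figure D3:**
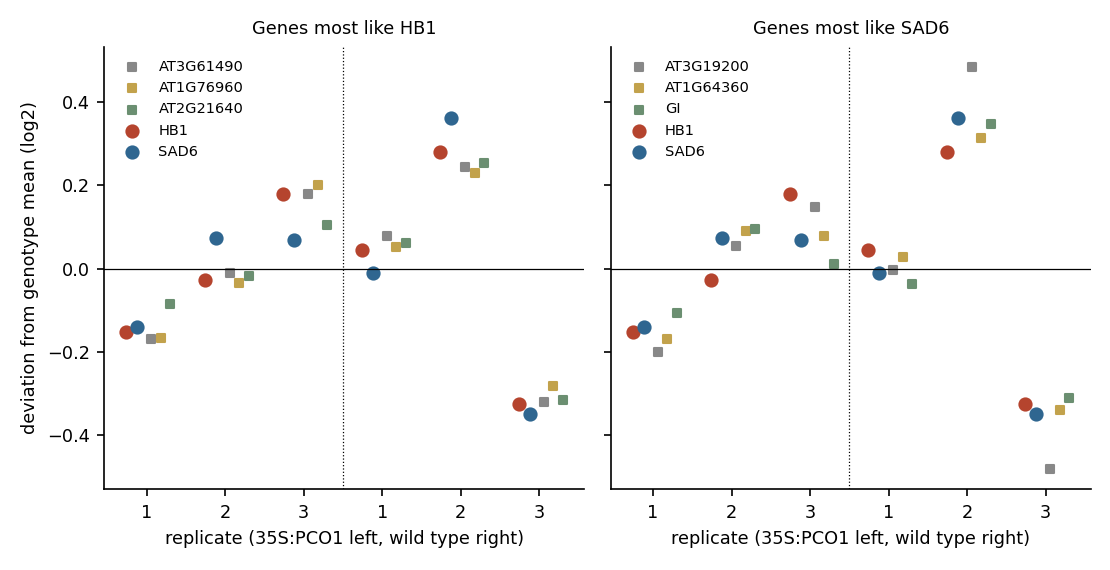
Deviation of each array from the mean of its genotype (log2), for HB1 (red) and SAD6 (blue) in both panels, and for the 3 genes most like HB1 (left panel) or SAD6 (right panel) as squares. The replicates of 35S:PCO1 are left of the dotted line and those of wild type right of it. In wild type, replicate 2 is high (0.28 for HB1) and replicate 3 low (-0.32 for HB1) for all genes drawn.

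Wild-type replicate 2, the highest array for both genes, also had the highest values in 2 of the 3 control pairs for RNA quality. For GAPDH, the 3 prime control exceeded the 5 prime control by 0.813 on the log2 scale, against 0.423 to 0.435 in 35S:PCO1 and 0.287 and 0.271 in wild-type replicates 1 and 3. For actin the excess was 1.78, against 1.37 to 1.47 in 35S:PCO1 and 1.42 and 1.52 in wild-type replicates 1 and 3. For ubiquitin it was 0.980, against 0.941 to 0.997 in 35S:PCO1 and 1.101 and 0.973 in wild-type replicates 1 and 3, so this array did not stand apart there. The part of RNA quality in the spread of HB1 and SAD6 was not tested. Without this array the log2 change was -2.11 for HB1 and -2.95 for SAD6. Over the 6 fits that each left out 1 array, the change ran from -2.41 to -2.11 for HB1 and from -3.31 to -2.95 for SAD6.

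Across all 6 arrays, where the difference between genotypes dominates, the members resembled each other and other hypoxia genes. HB1 and SAD6 had an r of 0.998 with each other, and among the 72 probe sets with an SD of at least 0.5 over the arrays, HB1 was the most like SAD6. The difference between genotypes chose both genes, so this likeness follows from the choice and nothing is read from it. Among those 72, 25 had an r above 0.9 with HB1 and 26 with SAD6. Of the named genes, the most like HB1 was AT4G10270 (r = 0.996), and it also followed HB1 within genotypes (r = 0.91). The most like SAD6 was AT3G27220 of the Kelch-repeat family (r = 0.997 over the arrays, 0.85 within genotypes). Its SD within genotypes was 0.10, below the 0.2 asked of the genes ordered by that measure, so its r within genotypes says little. AT3G27220 had a mean of 5.18 ± 0.085 in 35S:PCO1 and 6.58 ± 0.12 in wild type (SD, n = 3 each).

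Other genes were among the 8 named genes most like both members or 1 of them. AT5G01870, AT1G62500 and AT4G22490 belong to the lipid-transfer protein superfamily and were near both, with r from 0.981 to 0.989. AT5G10040 and AT1G33055 were near both as well, with r from 0.980 to 0.988. AT1G19530 was near HB1 (r = 0.979) and CML38, a calmodulin-like protein, near SAD6 (r = 0.985). Within genotypes AT1G19530 had an r of 0.98 with HB1, and AT1G62500 had 0.29 with HB1 and 0.030 with SAD6. AT1G62500 had an SD within genotypes of 0.074, below the 0.2 asked of the genes ordered by that measure, so its low r says little. These orders rest on 6 arrays that share the genotype step.

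The other genes of the hypoxia response, which the choice of HB1 and SAD6 did not use, were mostly lower in 35S:PCO1. Of 52 such genes on the list, 28 were matched to a probe set that the annotation lists for 1 gene. The others may still be on the arrays, since the annotation does not list 8730 probe sets. By limma, 11 of the 28 were called lower and none higher, or 39.3% called lower against 0.193% of all tested probe sets (44 of 22746), and 0.0703% of all tested probe sets were called higher. At an unadjusted p under 0.05, 25 were lower and none higher, against 6.85% of all tested probe sets lower and 3.53% higher. The median log2 change was -0.62 (range -2.54 to 0.076), against -0.012 over all probe sets. This list was drawn up with earlier results of these data known.

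AT4G10270, AT1G19530 and AT1G33055 were the genes of this list nearest to HB1 in size. AT4G10270 had 5.96, 6.30 and 6.61 in 35S:PCO1, against 9.02, 9.01 and 8.45 in wild type (limma adjusted p = 0.00064). AT1G33055 had 6.37, 7.05 and 6.78 in 35S:PCO1, against 8.89, 8.79 and 8.62 in wild type (limma adjusted p = 0.00067). All 35S:PCO1 arrays were below all wild-type arrays in both, as in AT1G19530. This held for 25 of the 28 matched hypoxia genes, against 10.5% of all tested probe sets. AT1G19530 had 6.47, 6.59 and 7.02 in 35S:PCO1, against 9.00, 9.27 and 8.05 in wild type (limma adjusted p = 0.022). The call of AT1G19530 did not hold without wild-type replicate 1 or without any one 35S:PCO1 array, with adjusted p up to 0.21.

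Other genes of the list fell by less. AT3G10040, which encodes HRA1, a trihelix transcription factor that dampens the hypoxia response, had a log2 change of -1.38 (SE 0.14, limma adjusted p = 0.0044). AT2G17850 of the rhodanese family fell by 1.81 (SE 0.21, limma adjusted p = 0.012), a call that ended in the same 4 fits, with adjusted p up to 0.12. AT3G27220 fell by 1.40 (SE 0.078, limma adjusted p = 0.00016), CML38 fell by 1.29 (SE 0.094, limma adjusted p = 0.00064) and AT5G10040 fell by 0.90 (SE 0.084, limma adjusted p = 0.0030). None of the matched hypoxia genes had a change as large as that of SAD6, and AT4G10270 alone exceeded HB1.

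No relative of HB1 could be followed, since neither HB2 nor GLB3 was matched to a probe set. For SAD6, 3 of the 15 other acyl desaturases on the list were matched, all of them stearoyl-ACP desaturase relatives of the same soluble family. By limma none was called, and none had an unadjusted p under 0.05. The shares over all tested probe sets were 0.264% called, and 6.85% lower and 3.53% higher at that unadjusted p. So few genes cannot be told apart from these shares. SAD1 (AT5G16240) had 6.79, 6.71 and 6.80 in 35S:PCO1, against 6.76, 6.75 and 7.10 in wild type. Its log2 change was -0.10 (95% interval -0.32 to 0.11, limma adjusted p = 0.77). SAD3 (AT5G16230) had 4.44, 4.30 and 4.49 in 35S:PCO1, against 4.47, 4.34 and 4.19 in wild type, a change of 0.077 (95% interval -0.12 to 0.27). SAD5 (AT3G02630) had 9.20, 9.21 and 9.17 in 35S:PCO1, against 9.18, 9.17 and 9.23 in wild type, a change of 0.0014 (95% interval -0.12 to 0.13). The groups overlapped in all 3 genes. SAD3, with a wild-type mean of 4.33, lay near the lower quartile of the arrays, where the scale leaves no room for a decrease as large as that of SAD6. The difference between SAD6 and these relatives was not tested, since SAD6 was chosen for its change.

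The 3 matched genes of fatty acid synthesis, of 20 on the list, were acyl-ACP thioesterases, which release fatty acids from ACP. None was called by limma, and none had an unadjusted p under 0.05. With 0.264% of all tested probe sets called, and 6.85% lower and 3.53% higher at that unadjusted p, 3 genes cannot be told apart from these shares. FATA1 (AT3G25110, listed as FaTA), which prefers oleoyl-ACP, the product of the desaturase, had a log2 change of -0.030 (95% interval -0.17 to 0.12). FATB (AT1G08510), which prefers saturated acyl-ACP, had -0.0077 (95% interval -0.20 to 0.19), and its sign turned with median centring and with repeated quantile normalization.

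For nitric oxide and nitrate, 1 of 15 listed genes was matched. MDAR2 (AT5G03630, listed as ATMDAR2) encodes a monodehydroascorbate reductase, an enzyme of the kind that reduces the oxidised haemoglobin again in barley. It had 8.64, 8.60 and 8.57 in 35S:PCO1, against 8.77, 8.79 and 8.89 in wild type. The groups did not overlap, as in 10.5% of all probe sets in that direction, and the change of -0.22 (SE 0.061) was not called by limma (adjusted p = 0.29). Of the N-degron pathway and its factors, 1 of 20 genes was matched, the methionine aminopeptidase MAP1A, with -0.037 (SE 0.064), a sign that turned with repeated quantile normalization.

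**Figure D4:**
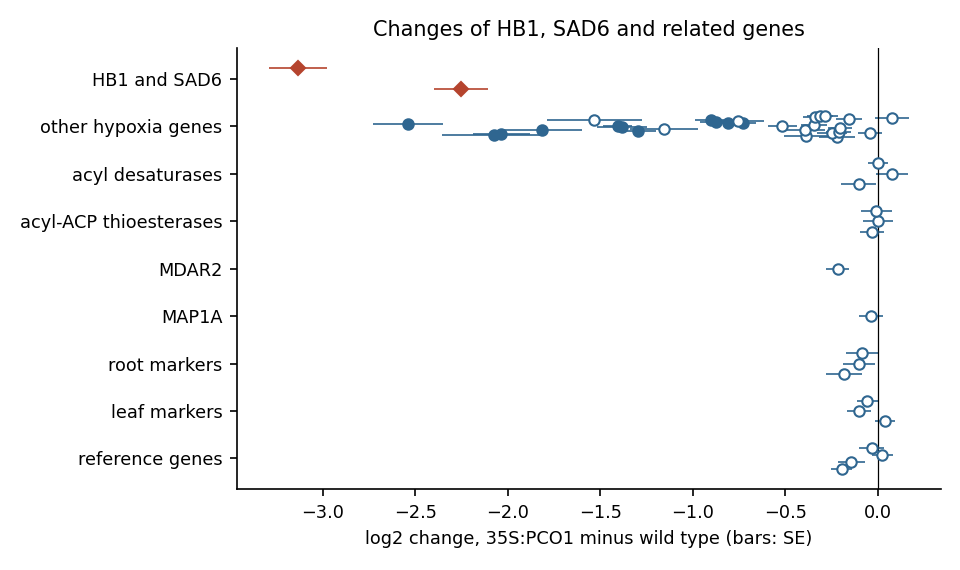
Log2 change, 35S:PCO1 over wild type, with SE bars, for HB1 and SAD6 (red diamonds, described without a test) and for the matched genes of related lists. Filled circles were called at a limma adjusted p under 0.05 and open circles were not. All 11 filled circles are hypoxia genes to the left of 0.

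Tissue markers and reference genes moved little beside these changes. The 3 of 9 matched root markers averaged 5.85 to 5.87 per array in 35S:PCO1 and 5.90 to 6.03 in wild type. These ranges did not overlap, and neither did those of the reference genes below. By limma none of the 3 was called and none had an unadjusted p under 0.05; PYK10, a root beta-glucosidase, had a log2 change of -0.18 (SE 0.097) and EXPA7, an expansin of root hairs, -0.10 (SE 0.088). Their part in the decreases of HB1 and SAD6 was not tested. The 3 leaf markers averaged 12.86 to 12.94 in 35S:PCO1 and 12.93 to 12.97 in wild type, with PSAN at -0.10 (SE 0.065) and LHCB4.1 at -0.056 (SE 0.058). The third, RCA, which encodes rubisco activase and is named here after its value was seen, stood at 0.039 (SE 0.055). The 4 matched reference genes averaged 9.19 to 9.22 per array in 35S:PCO1 and 9.27 to 9.32 in wild type. None of these 4 was called by limma, and 1, AT4G34270, had an unadjusted p under 0.05. Over all tested probe sets 0.264% were called, and 6.85% were lower and 3.53% higher at that unadjusted p. AT4G34270 stood at -0.20 (SE 0.058), and its groups did not overlap, as in 10.5% of all tested probe sets in that direction. PEX4, a ubiquitin-conjugating enzyme gene, stood at -0.14 (SE 0.073).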

How the data were processed

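Per the submitters' processing notes, the authors made the deposited log2 values with RMA, which corrects background, quantile-normalizes arrays and gives 1 value per probe set; its version is not given in the sources used here. No detection calls were used. Of 22810 probe sets, 64 controls were left out. The annotation names 1 gene for 13513 probe sets and several for 503, and does not list 8730. Where a gene had several probe sets, the one with the highest mean was taken. Names were updated through the TAIR10.1 gene table.

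The groups were compared with limma 3.58.1 in R 4.3.3 (lmFit, eBayes, no covariates, 2-sided) over 22746 probe sets, with Benjamini-Hochberg adjustment and calls at an adjusted p under 0.05. The number of arrays limits the precision. The procedure was tested on simulated data.

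The members and lists were chosen with earlier results of these data known. Besides HB1 and SAD6, the rule named the 8 genes with the highest Pearson r over the arrays (SD of at least 0.5), the 3 with the highest r within genotypes (SD of at least 0.2), the 3 nearest probe sets in change on either side, all matched phytoglobins and desaturases, and up to 6 called genes or else 2 genes of every other list. Chromosome neighbours were added later. Promoter motifs were not analysed here.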

Additional observations from a re-analysis of the deposited data

How the results depend on the processing

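The changes of HB1 and SAD6 kept their direction and moved by less than the SD pooled over both genotypes under every alternative run, although SAD6 moved by more than its SD in 35S:PCO1 (0.12) without wild-type replicate 2 (-2.95) or 3 (-3.31): the replicate number as a block, median centring, repeated quantile normalization, trend and robust eBayes, array weights, a filter at the 40th percentile, specific probe sets, group medians and each array left out (from -2.41 to -2.11 for HB1 and from -3.31 to -2.95 for SAD6). The count of 60 called probe sets was 255 with array weights, 28 at an adjusted p under 0.01, and 23 to 60 with 1 array left out, with fewer samples: wild-type replicate 1 left out gave 23, 35S:PCO1 replicate 1 gave 24 and 35S:PCO1 replicate 3 gave 33. The 11 hypoxia genes called lower became 18 with array weights and 8 to 15 with 1 array left out. Same-numbered arrays did not deviate together (r = -0.059, -0.22 and -0.26), and the highest r between arrays of unlike number was 0.23. These values cannot show whether same-numbered arrays shared a harvest or a batch. With the replicate block 26 probe sets and 9 hypoxia genes were called. The limma calls of AT5G01870 (adjusted p = 0.069) and AT1G19530 (adjusted p = 0.19) were lost with it. AT1G19530 was also lost with trend and robust eBayes (adjusted p = 0.14). With 1 array left out, the calls of AT5G01870 (adjusted p up to 0.052) and AT4G22490 (adjusted p up to 0.12) were lost in 2 and 3 fits.

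Signs turned only in uncalled genes near 0. FATB was 9.35e-07 with median centring, 0.031 with repeated quantile normalization, 0.0089 with array weights, and between -0.090 and 0.072 with 1 array left out. MAP1A was 0.0035 with repeated quantile normalization and -0.075 to 0.0031 with 1 array left out. GI was -0.011 with array weights and -0.14 to 0.19 with 1 array left out. The other signs that turned did so with 1 array left out: AT5G16240 from -0.16 to 0.0094, AT3G02630 from -0.0084 to 0.018, FaTA from -0.072 to 0.0027 and AT2G21640 from -0.21 to 0.074. The cause was not tested. Low signal limits SAD6 in 35S:PCO1, where RMA compresses differences.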

Other observations

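Genes next to HB1 and SAD6 on their chromosomes were looked at after the main results were known, taking 5 protein-coding genes on each side in the order of the TAIR10.1 gene table. Of 10 neighbours of HB1, 3 were matched to a probe set that the annotation lists, and of 10 neighbours of SAD6, 7 were. By limma none of these 10 was called, and 1 had an unadjusted p under 0.05. Over all tested probe sets 0.264% were called, and 6.85% were lower and 3.53% higher at that unadjusted p. So few neighbours cannot be told apart from these shares. Around HB1 the log2 changes were 0.031 for AT2G16020, -0.036 for AT2G16040 and 0.16 for AT2G16190, all with wild-type means between 3.16 and 3.68, close to the arrays' lowest values. The nearest matched neighbour of SAD6, AT1G43810, had 4.20 ± 0.036 in 35S:PCO1 and 4.19 ± 0.054 in wild type (SD, n = 3 each), a change of 0.011. Both means lay below the lower quartile of every array (4.22 to 4.27), where the scale leaves no room for a decrease as large as that of SAD6. The change farthest from 0 among the 7 was -0.15 (SE 0.063, limma adjusted p = 0.47), for AT1G43860. SEU, which encodes the transcriptional co-regulator SEUSS, had -0.081 (SE 0.070).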
